A study of Homo sapiens with 12 samples.

Results

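The 56 genes described here copy DNA or supply its building blocks. They were taken by symbol from a list of replication and nucleotide supply genes. That list was chosen with earlier results of these data known, so the counts of called members are descriptions. All 56 were found among the 17303 genes of the deposited table, and all 56 passed the expression filter that left 12868 genes for testing. SNU638 cells, a long-established line from a human stomach tumour, were profiled by bulk RNA-seq. The 4 stable lines were made with lentivirus and puromycin, and each gave 3 libraries. The lines sh-SKA2-1, sh-SKA2-2 and sh-SKA2-3 carried different short hairpin RNAs against SKA2 and are labelled as SKA2 knockdown. The line sh-control carried a control hairpin and is labelled as wild type for SKA2. All of the lines therefore share the virus infection and the drug selection. The design text speaks of resistant clones, and the labels do not say whether a line is a single clone or a pool, so a hairpin and its line cannot be told apart. Whether a line's 3 libraries are from different cultures is also not stated, so the p-values rest on a spread between libraries that may be technical alone. The stated aim was to find genes regulated by SKA2 in gastric cancer cells.

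Chromosome replication starts with licensing. In G1 the origin recognition complex, CDC6 and CDT1 load the MCM ring onto DNA, and in S phase CDC45 and the GINS complex turn that ring into the active helicase. Primase and DNA polymerases alpha, delta and epsilon then build the new strands, the RFC complex loads the PCNA clamp that holds the polymerases on DNA, and ribonucleotide reductase and the thymidylate enzymes keep the deoxynucleotide pool filled. Many of these genes are transcribed around the G1/S transition under E2F transcription factors, so in growing cell cultures their messenger RNA is a common readout of proliferation.

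Library totals lay between 14693343 and 16739155 expected counts. SKA2, a subunit of the SKA complex that ties kinetochores to spindle microtubules, stood at 26.0, 22.3 and 23.6 CPM in the sh-SKA2-1 libraries, 23.3, 25.3 and 27.1 CPM in the sh-SKA2-2 libraries and 24.9, 26.9 and 28.0 CPM in the sh-SKA2-3 libraries, against 126, 119 and 117 CPM in the sh-control libraries. CPM are counts scaled to a common library total with TMM factors. The targeted transcript was thus 80.1%, 79.0% and 77.9% lower with the 3 hairpins, and the hairpin lines did not differ in it beyond their error (sh-SKA2-2 against sh-SKA2-1 log2 fold change 0.07 ± 0.09 SE, adjusted p = 0.473 by edgeR's quasi-likelihood test). Summed markers of epithelium, which defines the cell type, were 2320 to 2410 CPM with sh-SKA2-1, 1110 to 1150 CPM with sh-SKA2-2 and 2120 to 2860 CPM with sh-SKA2-3, against 2780 to 3940 CPM with sh-control. Marker sums of leukocytes and endothelium did not exceed 1.26 CPM in any library, and those of fibroblasts did not exceed 9.05 CPM. The epithelial sum was thus lowest in the line with the lowest replication transcripts, and its part in the results was not tested. The slope of log2 level on log2 transcript length also differed between the lines. It was 0.084 to 0.108 with sh-SKA2-1, 0.152 to 0.206 with sh-SKA2-2, and 0.095, -0.126 and -0.173 in the sh-SKA2-3 libraries, against -0.054, -0.243 and -0.326 in the sh-control libraries, over 11784 genes. The trend moved many single genes. Against sh-control, its removal ended the calls of 11 members with sh-SKA2-1, 5 with sh-SKA2-2 and 3 with sh-SKA2-3, and it gave new calls to 10, 3 and 10 members. For the members' fold changes printed against sh-control, values with the trend removed (corrected for length) follow where they differ in call or direction or by more than 1.5 times.

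In sh-control cells the members were abundant transcripts. Per length, their median level was 62.2 TPM, against 15.6 TPM for all tested genes. MCM7, a helicase subunit, was highest with 413 TPM, followed by PCNA with 400 TPM, the thymidine salvage enzyme TK1 with 355 TPM and thymidylate synthase, TYMS, with 242 TPM. The lowest were POLE2, a subunit of polymerase epsilon, with 19.5 TPM, POLA1, the catalytic subunit of polymerase alpha, with 15.2 TPM, and the fork factor WDHD1 with 14.4 TPM.

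With the hairpin of the sh-SKA2-2 line, replication transcripts fell together. A gene was called when its Benjamini-Hochberg adjusted p over all tested genes was under 0.05 in edgeR's quasi-likelihood test. By this rule 53 of the 56 members were lower in sh-SKA2-2 than in sh-control, where 37.8% of all tested genes were lower, and 0 members were higher, where 36.6% of all tested genes were. The count of higher members was also 0 at an unadjusted p under 0.05 and by DESeq2. The members' median log2 fold change was -0.88, against -0.02 over all tested genes, and 25 members were at least 2-fold lower, as were 1658 of the 12868 tested genes. Summed over the members, 3971, 3935 and 3865 CPM were found in the sh-SKA2-2 libraries, against 7150, 7379 and 7613 CPM in the sh-control libraries. In bulk RNA, fewer cells in S phase and less of each transcript per cell cannot be told apart.

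The other hairpin lines did not share this fall. Against sh-control, 20 members were higher and 16 lower in sh-SKA2-1, with 31.5% of all tested genes called higher and 31.5% lower, and the members' median was 0.02. In sh-SKA2-3, 14 members were higher and 14 lower, with 23.6% of all tested genes called higher and 24.0% lower, and the median was -0.01. The shares in these lines were near the background. Summed member levels were 7523, 7517 and 7654 CPM in the sh-SKA2-1 libraries and 7256, 7315 and 7454 CPM in the sh-SKA2-3 libraries, which overlap the sh-control range given above. The comparisons with sh-control use the same control libraries, so their values are set side by side and not counted as independent of each other.

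**Figure D1:**
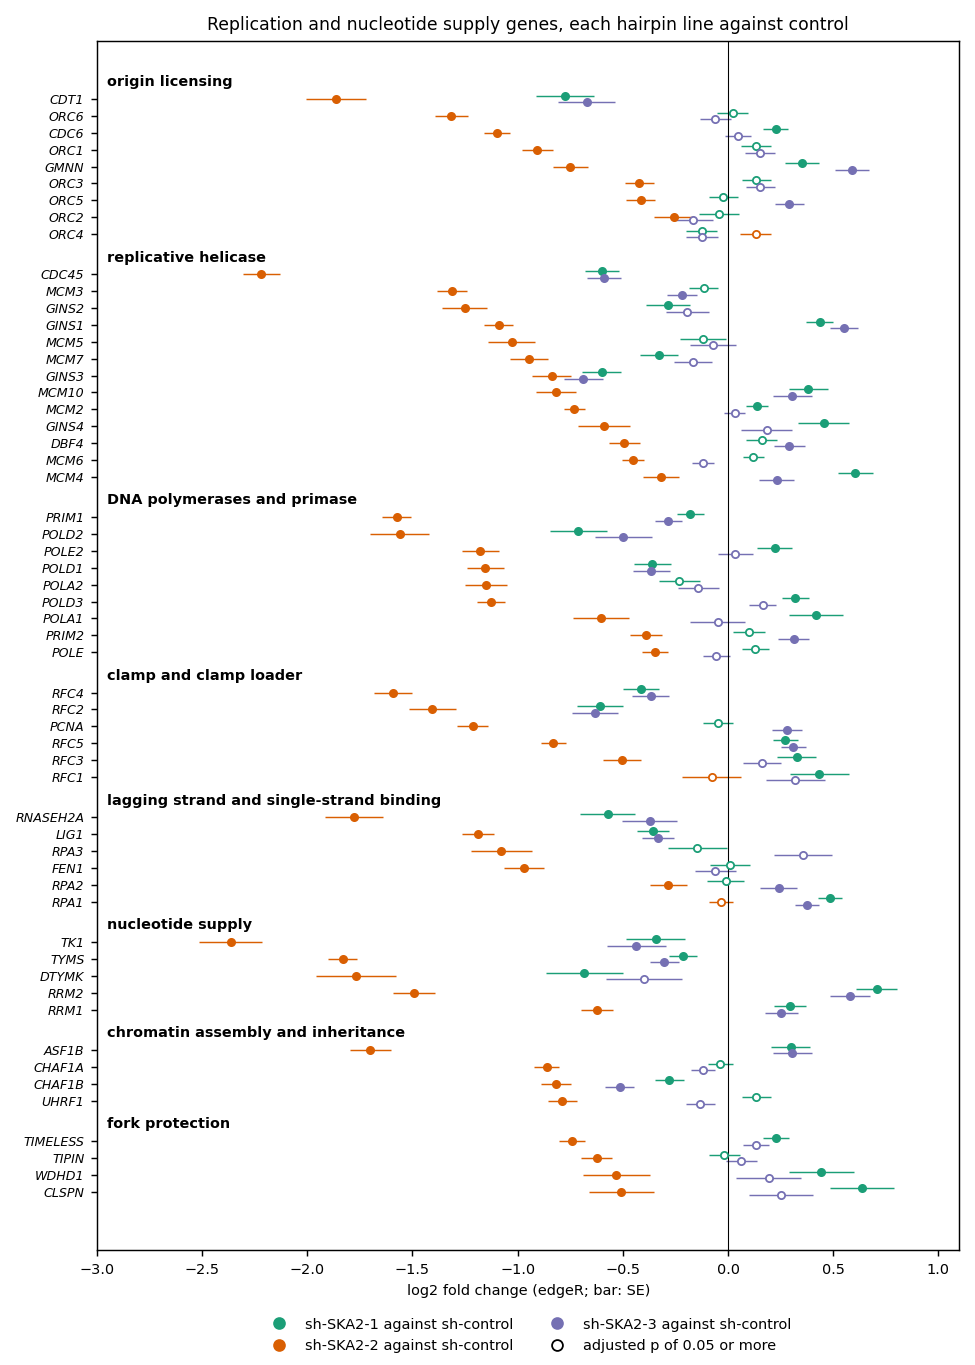
Log2 fold change of each of the 56 genes against sh-control (x axis) by role (y axis, 1 row a gene). Colours mark the hairpin line, bars the SE over the fit to 3 libraries a line, and open points an adjusted p of 0.05 or more; the sh-SKA2-2 points lie left of 0 for 55 of 56 genes, while those of sh-SKA2-1 and sh-SKA2-3 lie on either side.

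The direct contrasts between hairpin lines come from the same fit and libraries, so their order of lines is not separate support. In sh-SKA2-2 against sh-SKA2-1, 54 members were lower, with 29.4% of all tested genes lower, and 1 member was higher, with 28.2% of all tested genes higher. Their median was -0.95. In sh-SKA2-2 against sh-SKA2-3, 53 members were lower, with 33.4% of all tested genes lower, and 1 was higher, with 31.9% of all tested genes higher. Their median was -0.88. The single higher member was ORC4 each time, and its call against sh-SKA2-3 ended without sh-SKA2-3 replicate 2 (adjusted p = 0.0513, edgeR's quasi-likelihood test). In sh-SKA2-3 against sh-SKA2-1, 3 members were higher and 4 lower, where 4.75% of all tested genes were higher and 4.7% lower, and the median was -0.06. Those counts became 0 and 0 when only these 2 lines were fitted, where 144 of 12528 tested genes were higher and 192 lower. They were also 0 and 0 when any sh-SKA2-1 library, sh-SKA2-3 replicate 2 or sh-SKA2-3 replicate 3 was left out. Without sh-SKA2-3 replicate 1 they were 7 and 11, among 2536 genes higher and 2731 lower of 13000 tested.

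The promoter windows of 6 genes are shown as examples of different responses to sh-SKA2-2. These genes were picked by hand and not by a rule, and ORC4, the member with the highest log2 fold change, is not among them. RRM2, TK1, CDT1 and TYMS fell steeply, MCM6 fell by less, and RPA1 did not pass the test. Each window runs from 250 bases before to 50 bases after the annotated start (RefSeq, GRCh38.p14), is read 5′ to 3′ on the gene's strand, and comes from a table in which 50 of the 56 members had 64 windows. Capitals mark 2 motifs searched on both strands. The first is a set of 4 E2F words, TTTCCCGC, TTTGGCGC, TTTCGCGC and TTTGCCGC, which can overlap each other. The second is CCAAT, the NF-Y box. CDT1 lies at chr16:88803539-88803838 (plus strand), TYMS at chr18:657403-657702 (plus), MCM6 at chr2:135876394-135876693 (minus), TK1 at chr17:78187003-78187302 (minus), RRM2 at chr2:10122489-10122788 (plus) and RPA1 at chr17:1829755-1830054 (plus). For TK1 and RRM2, which have 2 windows each, the window with more matches is printed.
CDT1: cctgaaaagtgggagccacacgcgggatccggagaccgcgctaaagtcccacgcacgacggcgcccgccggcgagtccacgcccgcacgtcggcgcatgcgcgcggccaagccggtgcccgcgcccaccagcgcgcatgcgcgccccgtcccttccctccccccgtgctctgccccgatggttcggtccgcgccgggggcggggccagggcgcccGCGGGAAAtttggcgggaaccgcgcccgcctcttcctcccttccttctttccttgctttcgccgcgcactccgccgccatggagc
TYMS: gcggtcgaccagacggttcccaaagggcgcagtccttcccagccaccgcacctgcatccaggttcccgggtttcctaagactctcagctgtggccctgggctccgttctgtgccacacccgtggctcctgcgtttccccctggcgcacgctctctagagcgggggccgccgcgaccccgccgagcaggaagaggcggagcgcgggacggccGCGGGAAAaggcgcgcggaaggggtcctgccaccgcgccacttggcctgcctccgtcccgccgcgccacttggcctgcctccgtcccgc
MCM6: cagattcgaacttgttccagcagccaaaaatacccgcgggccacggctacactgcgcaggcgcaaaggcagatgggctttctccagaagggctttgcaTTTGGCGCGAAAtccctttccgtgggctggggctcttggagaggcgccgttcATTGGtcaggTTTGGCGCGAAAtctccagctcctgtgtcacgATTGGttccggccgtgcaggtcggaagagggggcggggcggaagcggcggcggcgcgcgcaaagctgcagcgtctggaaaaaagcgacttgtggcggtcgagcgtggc
TK1: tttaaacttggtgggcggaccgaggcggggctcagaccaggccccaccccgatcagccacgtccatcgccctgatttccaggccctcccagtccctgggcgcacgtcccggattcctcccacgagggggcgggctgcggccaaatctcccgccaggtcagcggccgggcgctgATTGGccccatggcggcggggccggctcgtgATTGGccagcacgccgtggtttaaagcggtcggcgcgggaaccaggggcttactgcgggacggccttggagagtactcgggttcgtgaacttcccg
RRM2: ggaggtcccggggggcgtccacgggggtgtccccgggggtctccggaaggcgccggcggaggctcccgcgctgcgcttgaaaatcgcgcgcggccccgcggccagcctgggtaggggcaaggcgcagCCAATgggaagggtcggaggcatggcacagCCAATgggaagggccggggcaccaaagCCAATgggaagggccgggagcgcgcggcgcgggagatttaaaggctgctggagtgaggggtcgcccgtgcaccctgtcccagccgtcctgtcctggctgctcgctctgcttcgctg
RPA1: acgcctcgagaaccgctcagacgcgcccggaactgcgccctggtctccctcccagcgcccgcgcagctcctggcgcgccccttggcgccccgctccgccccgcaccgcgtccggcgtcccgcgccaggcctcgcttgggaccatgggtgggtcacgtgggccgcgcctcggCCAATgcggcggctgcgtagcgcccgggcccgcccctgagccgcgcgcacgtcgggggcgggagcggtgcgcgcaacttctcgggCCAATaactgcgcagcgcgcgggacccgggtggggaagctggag

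CDT1 and TYMS each hold 1 E2F word, whose first base lies 35 and 39 bases before the start. MCM6 holds 4, as 2 overlapping pairs between 152 and 86 bases before the start, and 2 CCAAT boxes. TK1 and RRM2 hold no exact E2F word in these windows but 2 and 3 CCAAT boxes. Over all members with a window, 22 of 50 (44.0%) held an E2F word, against 6.65% of 10540 tested genes and 3.99% of all 27305 genes in the table. CCAAT occurred in 32 of 50 members (64.0%), against 43.5% of tested genes. Members with an E2F word had a median log2 fold change of -0.89 and 22 of 22 were lower, and the 28 without had a median of -0.88 with 25 lower. A match is a description of the sequence and not a bound site.

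Among the origin licensing genes, 8 of 9 were lower with sh-SKA2-2, and the median was -0.75. Corrected for length, 7 were lower and the median was -0.50. CDT1, which brings the MCM ring to origins, had 67.7, 61.8 and 61.5 CPM in sh-SKA2-1, 32.6, 28.9 and 28.4 CPM in sh-SKA2-2 and 55.2, 73.8 and 76.3 CPM in sh-SKA2-3, against 90.2, 112 and 125 CPM in sh-control. All 9 hairpin libraries were below all 3 sh-control libraries, and those of sh-SKA2-2 were lowest. The log2 fold changes were -0.78 ± 0.14, -1.86 ± 0.14 and -0.67 ± 0.14 (SE), with adjusted p of 0.000649, 4.26e-07 and 0.00205 (edgeR's quasi-likelihood test). Its inhibitor geminin, GMNN, took the other direction in 2 of the lines. GMNN had 52.5, 55.3 and 59.6 CPM in sh-SKA2-1, 27.7, 24.6 and 25.8 CPM in sh-SKA2-2 and 60.2, 66.8 and 70.2 CPM in sh-SKA2-3, against 41.5, 44.9 and 44.7 CPM in sh-control. The sh-SKA2-1 and sh-SKA2-3 libraries lay above every sh-control library and the sh-SKA2-2 libraries below, with log2 fold changes of 0.35 ± 0.08, -0.75 ± 0.08 and 0.59 ± 0.08. GMNN has a short transcript of 942 nt, a length implied by the deposited counts and FPKM. With the length trend removed, its value with sh-SKA2-1 was 0.78, and that with sh-SKA2-2 was -0.16 and was not called (adjusted p = 0.104, edgeR's quasi-likelihood test).

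CDC6, the loader's ATPase, was 53.3% lower with sh-SKA2-2 (log2 fold change -1.10 ± 0.06) and 17.1% higher with sh-SKA2-1 (0.23 ± 0.06). The origin recognition subunits split in size. ORC6 (-1.31 ± 0.08) and ORC1 (-0.91 ± 0.07) fell with sh-SKA2-2 by more than ORC3 (-0.42 ± 0.07), ORC5 (-0.42 ± 0.07) and ORC2 (-0.26 ± 0.10). Corrected for length, ORC5 was not called (-0.026, adjusted p = 0.796, edgeR's quasi-likelihood test), and the changes of ORC6 and ORC3 were -0.82 and -0.23. ORC4 had 115, 118 and 131 CPM in sh-SKA2-2, against 112, 113 and 108 CPM in sh-control, and its log2 fold change of 0.13 ± 0.07 did not pass the test (adjusted p = 0.133, edgeR's quasi-likelihood test). Its sh-SKA2-2 libraries were nonetheless above those of sh-SKA2-1 (99.8, 102 and 104 CPM), a difference of 0.26 ± 0.07 with an adjusted p of 0.0115 by edgeR's quasi-likelihood test. ORC4 has a long transcript of 6221 nt, and with the length trend removed it was called lower in each hairpin line than in sh-control. Its log2 fold changes were then -0.62 with sh-SKA2-1, -0.50 with sh-SKA2-2 and -0.36 with sh-SKA2-3. The difference between sh-SKA2-2 and sh-SKA2-1 was then 0.12 and not called.

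**Figure D2:**
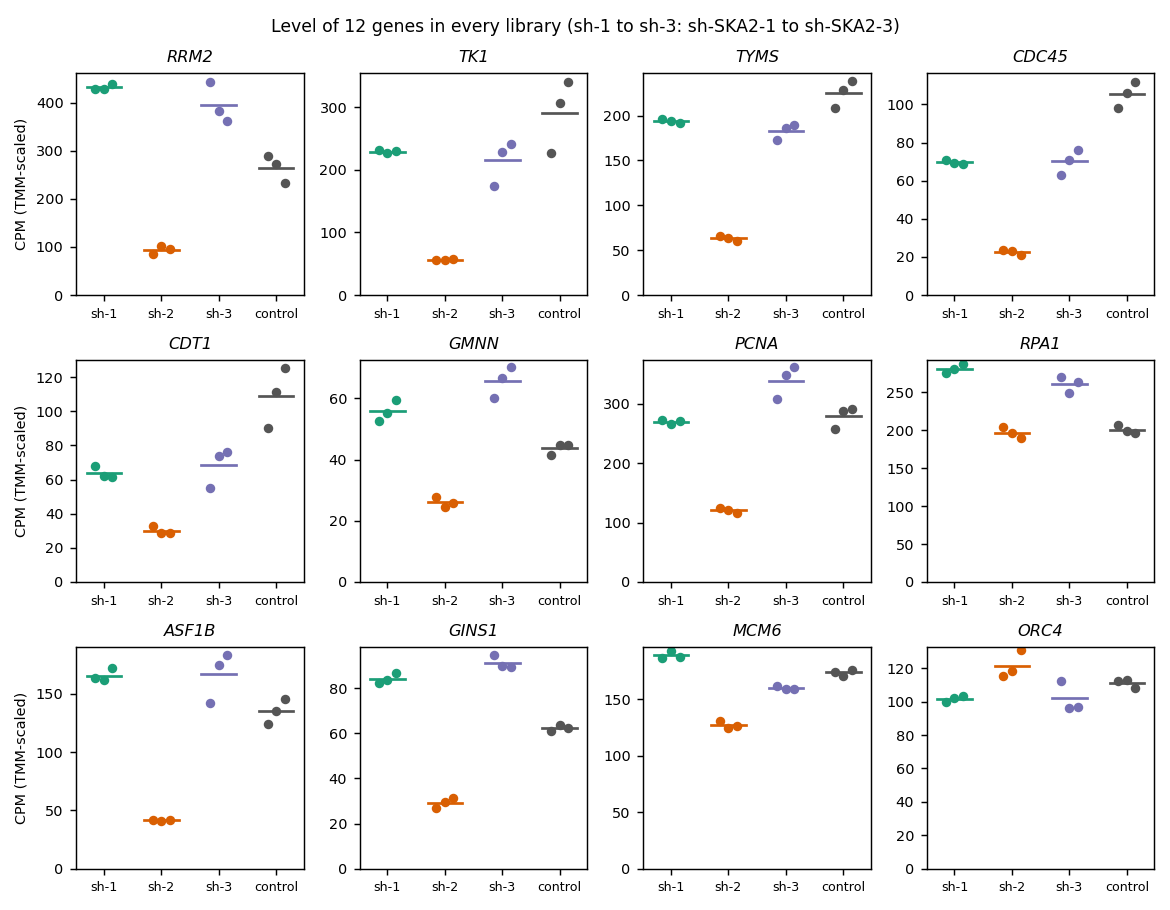
Level of 12 of the genes in each library, in TMM-scaled CPM on axes that start at 0; points are libraries and lines the means of 3 libraries a line. The sh-SKA2-2 points are the lowest in all panels except RPA1, where they overlap sh-control, and ORC4, where they are the highest.

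All 13 helicase genes were lower with sh-SKA2-2, with a median of -0.84. The activator CDC45 fell most. It had 70.8, 69.1 and 68.8 CPM in sh-SKA2-1, 23.8, 23.0 and 21.1 CPM in sh-SKA2-2 and 62.8, 71.0 and 76.2 CPM in sh-SKA2-3, against 98.3, 106 and 112 CPM in sh-control. No hairpin library reached the sh-control range, and the log2 fold changes were -0.60 ± 0.08, -2.22 ± 0.09 and -0.59 ± 0.08. The CDC45 change with sh-SKA2-1 was -0.315 once corrected for length. The GINS subunits, which act as a 4-part complex with CDC45, did not move in a single direction. GINS1 had 82.1, 83.5 and 86.8 CPM in sh-SKA2-1, 27.1, 29.3 and 31.3 CPM in sh-SKA2-2 and 94.8, 89.5 and 89.3 CPM in sh-SKA2-3, against 60.8, 63.7 and 62.1 CPM in sh-control. It was thus higher in 2 lines (0.43 ± 0.07 and 0.55 ± 0.07) and lower with sh-SKA2-2 (-1.09 ± 0.07), without overlap. GINS3 was lower in each line, by -0.60 ± 0.09 with sh-SKA2-1, -0.84 ± 0.09 with sh-SKA2-2 and -0.69 ± 0.09 with sh-SKA2-3. For GINS3, sh-SKA2-2 and sh-SKA2-3 did not differ beyond their error (-0.15 ± 0.09, adjusted p = 0.178, edgeR's quasi-likelihood test). Corrected for length, GINS3 was -0.38 with sh-SKA2-1 and -0.52 with sh-SKA2-2.

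The subunits of the MCM ring fell with sh-SKA2-2 by unequal amounts. MCM3 changed most (-1.31 ± 0.07), followed by MCM5 (-1.03 ± 0.11), MCM7 (-0.95 ± 0.09), MCM2 (-0.73 ± 0.05), MCM6 (-0.45 ± 0.05) and MCM4 (-0.32 ± 0.09). Corrected for length, MCM4 was at -0.53 and MCM3 still changed most, while MCM7 (-0.75) and MCM2 (-0.79) changed places. MCM6, whose promoter window holds 4 E2F matches, had 131, 124 and 126 CPM in sh-SKA2-2, against 175, 171 and 176 CPM in sh-control. MCM4 had 415, 406 and 402 CPM in sh-SKA2-1, 223, 211 and 210 CPM in sh-SKA2-2 and 352, 305 and 287 CPM in sh-SKA2-3, against 295, 262 and 247 CPM in sh-control. The sh-SKA2-1 libraries stood above sh-control and the sh-SKA2-2 libraries below, while those of sh-SKA2-3 overlapped sh-control (0.23 ± 0.08, adjusted p = 0.0404, edgeR's quasi-likelihood test). MCM10, a factor that helps the helicase start, was higher with sh-SKA2-1 (0.38 ± 0.09) and sh-SKA2-3 (0.30 ± 0.09) and lower with sh-SKA2-2 (-0.82 ± 0.09). DBF4, the regulatory subunit of the kinase that fires origins, was lower with sh-SKA2-2 (-0.49 ± 0.07) and higher with sh-SKA2-3 (0.29 ± 0.07). Corrected for length, MCM10 was 0.129 with sh-SKA2-1 and 0.175 with sh-SKA2-3, and MCM4 was 0.128 with sh-SKA2-3.

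DNA polymerases and primase were all lower with sh-SKA2-2, 9 of 9 with a median of -1.15, and 8 of 9 with the length trend removed. PRIM1, the catalytic subunit of primase, had 34.3, 33.1 and 33.6 CPM in sh-SKA2-1, 12.7, 12.3 and 13.4 CPM in sh-SKA2-2 and 32.9, 30.8 and 30.3 CPM in sh-SKA2-3, against 39.0, 37.8 and 37.6 CPM in sh-control. It fell by 66.5% with sh-SKA2-2 (-1.58 ± 0.07), and its partner PRIM2 fell by 23.6% (-0.39 ± 0.08). Corrected for length, PRIM1 was at -1.04 and PRIM2 was not called (-0.12, adjusted p = 0.209, edgeR's quasi-likelihood test). With sh-SKA2-1 PRIM1 was lower at -0.18 ± 0.06, and with the length trend removed it was not called and had a value of 0.20. With sh-SKA2-3 PRIM1 was lower at -0.28 ± 0.06, and corrected for length it was at -0.088 and not called. Within polymerase delta, POLD2 (-1.56 ± 0.14), POLD1 (-1.15 ± 0.09) and POLD3 (-1.13 ± 0.07) all fell with sh-SKA2-2. POLD1, the catalytic subunit, and POLD2 were also lower with sh-SKA2-1 (-0.36 ± 0.09 and -0.71 ± 0.14) and sh-SKA2-3 (-0.36 ± 0.09 and -0.50 ± 0.14), while POLD3 was higher with sh-SKA2-1 (0.32 ± 0.06). Corrected for length, POLD2 was at -0.37 with sh-SKA2-1 and -0.32 with sh-SKA2-3. Polymerase epsilon had a small fall of its catalytic subunit POLE (-0.35 ± 0.06) and a larger one of POLE2 (-1.18 ± 0.09). That order depended on length, since with the trend removed POLE was at -1.10 and POLE2 at -0.69. POLA1 had 71.0, 70.9 and 73.8 CPM in sh-SKA2-1, 37.4, 34.0 and 34.8 CPM in sh-SKA2-2 and 60.8, 48.5 and 46.5 CPM in sh-SKA2-3, against 65.2, 50.5 and 45.5 CPM in sh-control. The sh-SKA2-1 libraries were above and the sh-SKA2-2 libraries below every sh-control library (0.42 ± 0.13 and -0.60 ± 0.13), and replicate 1 was the highest of both sh-SKA2-3 and sh-control. Corrected for length, POLA1 was not called with sh-SKA2-1 (0.072, adjusted p = 0.348, edgeR's quasi-likelihood test) and was at -1.05 with sh-SKA2-2. With sh-SKA2-3 POLA1 was at -0.05 ± 0.13 and not called, and corrected for length it was called lower at -0.21.

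Of the clamp and its loader, 5 of 6 genes were lower with sh-SKA2-2, with a median of -1.02. Once corrected for length, 5 were also lower and the median was -0.61. PCNA had 274, 266 and 272 CPM in sh-SKA2-1, 124, 121 and 117 CPM in sh-SKA2-2 and 308, 348 and 362 CPM in sh-SKA2-3, against 258, 288 and 292 CPM in sh-control. The sh-SKA2-2 libraries were well below and the sh-SKA2-3 libraries above sh-control, and sh-SKA2-1 overlapped it, with log2 fold changes of -0.05 ± 0.07 for sh-SKA2-1, -1.21 ± 0.07 for sh-SKA2-2 and 0.28 ± 0.07 for sh-SKA2-3. Corrected for length, PCNA was called higher with sh-SKA2-1 at 0.365, lower with sh-SKA2-2 at -0.64 and higher with sh-SKA2-3 at 0.48. In the loader, the small subunits RFC4 (-1.59 ± 0.09) and RFC2 (-1.41 ± 0.11) fell most and were lower with the other hairpins too, RFC2 by -0.61 ± 0.11 and -0.63 ± 0.11. Corrected for length, RFC4 was -1.02 with sh-SKA2-2 and was not called with sh-SKA2-1 (-0.006) or sh-SKA2-3 (-0.16), and RFC2 was -0.92 with sh-SKA2-2 and -0.27 with sh-SKA2-1. RFC5 was lower with sh-SKA2-2 (-0.83 ± 0.06) and higher with sh-SKA2-1 (0.27 ± 0.06) and sh-SKA2-3 (0.31 ± 0.06), and with the length trend removed its value with sh-SKA2-1 was 0.44. RFC1, the large subunit, had 118, 116 and 119 CPM in sh-SKA2-2, inside the sh-control range of 110 to 147 CPM, and its log2 fold change of -0.08 ± 0.14 did not pass the test (adjusted p = 0.622, edgeR's quasi-likelihood test). Its transcript is 4552 nt long, and with the length trend removed it was called lower, by -0.43.

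Lagging strand and single-strand binding genes were lower with sh-SKA2-2 in 5 of 6 cases, with a median of -1.02, which was -0.66 with the length trend removed. RNASEH2A, the catalytic subunit of the nuclease that removes RNA from DNA, had 54.2, 54.4 and 54.4 CPM in sh-SKA2-1, 23.6, 23.9 and 23.1 CPM in sh-SKA2-2 and 52.0, 63.2 and 71.8 CPM in sh-SKA2-3, against 65.2, 82.9 and 94.1 CPM in sh-control. Only the sh-SKA2-3 libraries overlapped sh-control, and the log2 fold changes were -0.57 ± 0.13, -1.78 ± 0.14 and -0.37 ± 0.13. Corrected for length, RNASEH2A was not called with sh-SKA2-1 (-0.116) and was at -1.16 with sh-SKA2-2 and -0.157 with sh-SKA2-3. LIG1, the ligase that joins Okazaki fragments, fell by 56.2% with sh-SKA2-2 (-1.19 ± 0.08), and the flap nuclease FEN1 had a log2 fold change of -0.97 ± 0.10. The subunits of the single-strand binding complex RPA separated. RPA3 fell with sh-SKA2-2 by -1.08 ± 0.14 and RPA2 by -0.28 ± 0.09, while RPA1 had 204, 196 and 190 CPM in sh-SKA2-2, against 208, 199 and 197 CPM in sh-control. RPA1 therefore overlapped sh-control in that line (-0.03 ± 0.06, adjusted p = 0.617, edgeR's quasi-likelihood test). In the other lines it was above every sh-control library, with 275, 281 and 288 CPM in sh-SKA2-1 and 270, 250 and 263 CPM in sh-SKA2-3 (0.48 ± 0.06 and 0.38 ± 0.06). Corrected for length, RPA1 was called lower with sh-SKA2-2 at -0.23 and was at 0.31 with sh-SKA2-1, while RPA2, of 1317 nt, was called higher with sh-SKA2-2 at 0.21. RPA3 was then at -0.71 and FEN1 at -0.61 with sh-SKA2-2.

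The nucleotide supply genes fell furthest with sh-SKA2-2, 5 of 5 with a median of -1.77, which was -1.34 with the length trend removed. TK1, which salvages thymidine, had 231, 226 and 230 CPM in sh-SKA2-1, 55.2, 56.1 and 58.1 CPM in sh-SKA2-2 and 175, 228 and 241 CPM in sh-SKA2-3, against 226, 306 and 340 CPM in sh-control. The sh-SKA2-2 libraries were far below all others, while sh-SKA2-1 and sh-SKA2-3 overlapped sh-control, whose first replicate was its lowest. The log2 fold changes were -0.34 ± 0.14, -2.37 ± 0.15 and -0.44 ± 0.14 (adjusted p = 0.049, 9.65e-08 and 0.0235, edgeR's quasi-likelihood test), and with the length trend removed the sh-SKA2-1 value was 0.051 and not called and the sh-SKA2-3 value -0.24. TYMS had 196, 194 and 192 CPM in sh-SKA2-1, 65.7, 63.7 and 60.4 CPM in sh-SKA2-2 and 172, 186 and 189 CPM in sh-SKA2-3, against 208, 229 and 238 CPM in sh-control. All hairpin libraries were below sh-control, by -0.21 ± 0.07, -1.83 ± 0.07 and -0.30 ± 0.07. TYMS overlaps ENOSF1 on the opposite strand and the protocol names no step that keeps the strand, so reads of these genes cannot be told apart. Corrected for length, TYMS was called higher with sh-SKA2-1, at 0.13, and was not called with sh-SKA2-3 (-0.116). DTYMK, which phosphorylates thymidylate and is the shortest member at 767 nt, fell with sh-SKA2-2 by -1.77 ± 0.19, and its value with the trend removed was -1.12.

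Ribonucleotide reductase changed in opposite directions between lines. RRM2, its regulated small subunit, had 429, 428 and 439 CPM in sh-SKA2-1, 85.7, 101 and 95.3 CPM in sh-SKA2-2 and 443, 382 and 362 CPM in sh-SKA2-3, against 289, 272 and 234 CPM in sh-control. No groups of hairpin and sh-control libraries overlapped, and the changes were 63.2% up, 64.5% down and 49.4% up (log2 fold changes 0.71 ± 0.10, -1.49 ± 0.10 and 0.58 ± 0.10). The difference between sh-SKA2-2 and sh-SKA2-1 was -2.20 ± 0.10, with an adjusted p of 1.86e-08 (edgeR's quasi-likelihood test), and with the length trend removed the 3 changes against sh-control were 0.68, -1.51 and 0.57. RRM1, the large subunit, followed with 369, 363 and 382 CPM in sh-SKA2-1, 198, 193 and 198 CPM in sh-SKA2-2 and 395, 344 and 343 CPM in sh-SKA2-3, against 331, 300 and 277 CPM in sh-control. It was higher with sh-SKA2-1 (0.30 ± 0.08) and sh-SKA2-3 (0.25 ± 0.08) and lower with sh-SKA2-2 (-0.62 ± 0.08).

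Chromatin assembly and inheritance genes were lower with sh-SKA2-2 in 4 of 4 cases, with a median of -0.84. The histone chaperone ASF1B had 164, 161 and 172 CPM in sh-SKA2-1, 42.0, 40.6 and 41.6 CPM in sh-SKA2-2 and 142, 174 and 183 CPM in sh-SKA2-3, against 124, 135 and 146 CPM in sh-control. The sh-SKA2-2 libraries were below and the sh-SKA2-1 libraries above sh-control, and sh-SKA2-3 overlapped it in 1 library (0.30 ± 0.09, -1.70 ± 0.10 and 0.31 ± 0.09). Corrected for length, ASF1B was 0.63 with sh-SKA2-1 and 0.48 with sh-SKA2-3. CHAF1B, a subunit of chromatin assembly factor 1, was lower with each hairpin, by -0.28 ± 0.07, -0.82 ± 0.07 and -0.52 ± 0.07. UHRF1, which guides maintenance methylation, fell with sh-SKA2-2 (-0.79 ± 0.07) and was also lower there than in sh-SKA2-1 (-0.92 ± 0.07) and in sh-SKA2-3 (-0.66 ± 0.07). The 4 fork protection genes were lower with sh-SKA2-2 by smaller amounts, with a median of -0.58, from TIMELESS at -0.74 ± 0.06 to CLSPN at -0.51 ± 0.15. CLSPN, which relays the checkpoint signal at stalled forks, was also higher with sh-SKA2-1 (0.64 ± 0.15). These are long transcripts for the most part, and with the length trend removed their median with sh-SKA2-2 was -0.999 and 3 of 4 were lower. TIMELESS was then at -1.16 and CLSPN at -0.99, and the sh-SKA2-1 value of CLSPN was 0.27.

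Some members were called in opposite directions with different hairpins. Higher with sh-SKA2-1 and lower with sh-SKA2-2 were 18 members, where 2.89% of all tested genes had that pattern. Higher with sh-SKA2-3 and lower with sh-SKA2-2 were 13, where 3.02% of all tested genes did. As 53 of the 56 members were lower with sh-SKA2-2, most members that were higher with another hairpin have this pattern. The shares of members higher with sh-SKA2-1 (35.7%) and sh-SKA2-3 (25.0%) were near those of all tested genes (31.5% and 23.6%). The counts thus largely restate the fall with sh-SKA2-2. With the length trend removed 12 of the 18 and 9 of the 13 kept the pattern, and other members gained it, so that 18 and 14 then had it. The 8 members in both sets were GMNN, MCM4, MCM10, GINS1, RFC5, RRM1, RRM2 and ASF1B, and 7 of these kept the pattern with the length trend removed, all but GMNN. ORC3, POLD3, PCNA and RPA1 then joined, so that 11 members were in both sets. Lower with each of the 3 hairpins were 13 members, where 15% of all tested genes were. They were CDT1, CDC45, GINS3, PRIM1, POLD1, POLD2, RFC2, RFC4, LIG1, RNASEH2A, TYMS, TK1 and CHAF1B, and 8 of these were still lower with each hairpin once the length trend was removed, namely CDT1, CDC45, GINS3, POLD1, POLD2, RFC2, LIG1 and CHAF1B. ORC4 and POLE were then also lower with each hairpin, which made 10 members.

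Leaving out single libraries tested how far these calls rest on 1 library. With sh-SKA2-2 against sh-control, ORC2 lost its call without sh-control replicate 1 or sh-SKA2-2 replicate 1 (adjusted p up to 0.111, edgeR's quasi-likelihood test) and RPA2 without sh-SKA2-2 replicate 3 (0.0619), and every other lower member kept its call in all 12 omissions. With sh-SKA2-1 against sh-control, the calls of TYMS and POLA1 ended without sh-control replicate 2 and without replicate 3 (adjusted p up to 0.062 and 0.0601, edgeR's quasi-likelihood test), and that of ASF1B without sh-SKA2-1 replicate 3 (0.0537). RFC1 lost its call without sh-control replicate 2 or 3 or sh-SKA2-1 replicate 3 (up to 0.0696). TK1, PRIM1 and POLE2 lost theirs in 9, 5 and 6 of the omissions, with adjusted p up to 0.209, 0.0716 and 0.21 by edgeR's quasi-likelihood test. Among the members called in opposite directions, MCM2 lost its sh-SKA2-1 call in 9 and WDHD1 in 5 omissions (up to 0.132 and 0.105). With sh-SKA2-3 against sh-control, RRM1 and TK1 were no longer called without sh-control replicate 2, sh-control replicate 3 or sh-SKA2-3 replicate 1 (up to 0.0735 and 0.103), and ASF1B without sh-control replicate 2, sh-SKA2-3 replicate 2 or sh-SKA2-3 replicate 3 (up to 0.065). MCM10 lost it without sh-control replicate 3 or sh-SKA2-3 replicate 1 (up to 0.0715), and RPA2 in 9 omissions (up to 0.126). MCM4 and RNASEH2A each lost that call in 8 of the omissions, with adjusted p up to 0.146 and 0.15 by edgeR's quasi-likelihood test.

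Transcript length ran with the members' changes. Across the 56 members, Spearman's rho between log2 fold change and length was 0.538 for sh-SKA2-1, 0.605 for sh-SKA2-2 and 0.264 for sh-SKA2-3, against 0.558, 0.494 and 0.336 over 11784 tested genes. These are descriptions across genes that share the same libraries. With sh-SKA2-1, the 28 shorter members had 5 higher and 14 lower, and the 28 longer members had 15 higher and 2 lower. With sh-SKA2-2, 28 of the 28 shorter and 25 of the 28 longer members were lower. With the trend removed there were 24 members higher and 11 lower with sh-SKA2-1, 1 higher and 50 lower with sh-SKA2-2 (median -0.91) and 18 higher and 17 lower with sh-SKA2-3. In the same fit 30.2% of all tested genes were higher and 30.2% lower with sh-SKA2-1, 37.2% and 36.6% with sh-SKA2-2, and 27.6% and 27.7% with sh-SKA2-3. The authors' TPM divide by length and then scale each library to an equal total. Division by a gene's own length does not remove a length trend from its fold change, so TPM are not a second length correction. They moved the median of all tested genes by 0.29, 0.33 and 0.12 for sh-SKA2-1, sh-SKA2-2 and sh-SKA2-3. Of all called genes, 78.9%, 71.7% and 60.9% were then higher. On the count scale these shares were 49.2% for sh-SKA2-2 and 49.6% for sh-SKA2-3, and with sh-SKA2-1 4055 genes were higher and 4059 lower. Between hairpin lines, 53.8%, 15.4% and 69.7% of called genes were higher on the TPM scale in sh-SKA2-2 against sh-SKA2-1, sh-SKA2-3 against sh-SKA2-1 and sh-SKA2-2 against sh-SKA2-3, with 49.0%, 50.2% and 48.9% on the count scale. On the TPM scale 39 members were higher and 6 lower with sh-SKA2-1, 3 higher and 37 lower with sh-SKA2-2 and 15 higher and 11 lower with sh-SKA2-3. Of the 12868 tested genes, 6462 were higher and 1733 lower with sh-SKA2-1 at log2(TPM + 1). With sh-SKA2-2 these counts were 6814 and 2694, and with sh-SKA2-3 they were 3219 and 2071. Relative to the shift of all genes the members' medians were 0.12, -0.76 and 0.08.

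**Figure D3:**
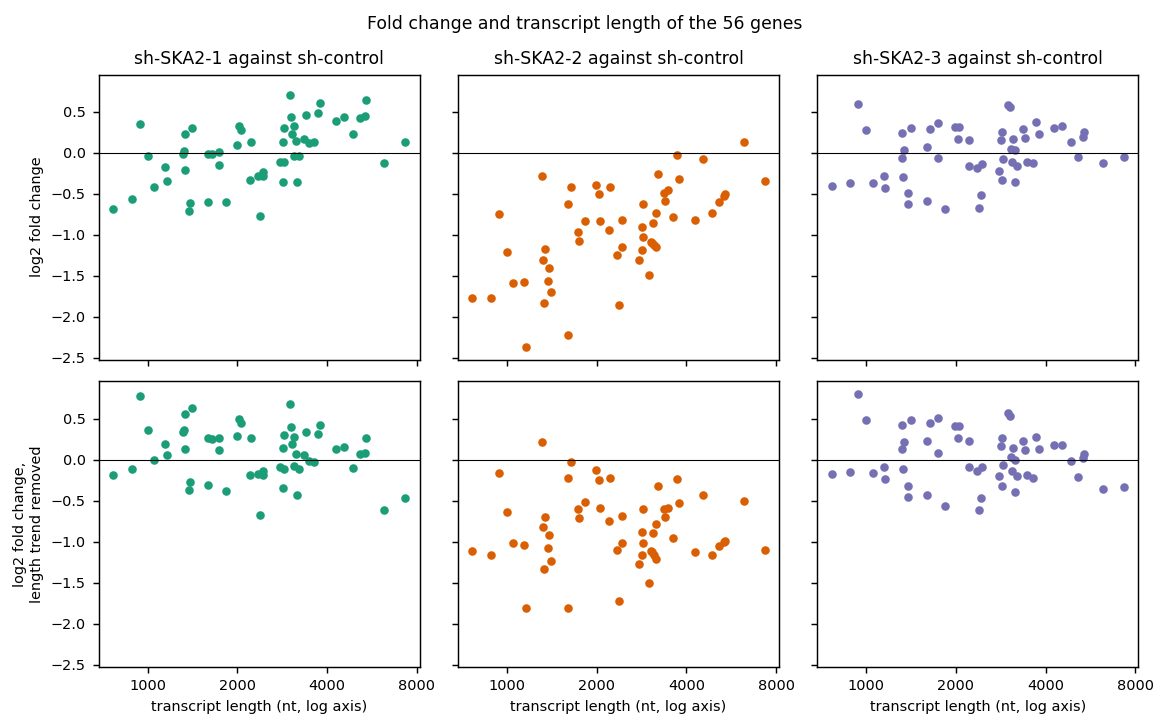
Log2 fold change of the 56 genes (y axes) against transcript length in nucleotides (x axis, log scale), before (upper row) and after (lower row) removal of the length trend fitted over all genes; each point is a gene. With sh-SKA2-2 the points stay mostly below 0 in both rows, while the upward slope of the upper panels is absent from the lower ones.

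For sh-SKA2-3 against sh-control the replicate numbers may not be true pairs, and a fit with the replicate number as a block changed the count. It called 24 members higher and 23 lower, among 4487 genes higher and 4436 lower of 12492 tested. Without the block the same 6 libraries gave 7 members higher and 6 lower, among 1590 genes higher and 1868 lower of 12492 tested. The members' median was -0.005 with the block and -0.009 in the fit of all 12 libraries without it.

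The other genes of the same pathways gave a smaller shift with sh-SKA2-2. Of 32 further replication factors, 18 were lower and 3 higher with a median of -0.32 (56.2% lower and 9.38% higher), and of 30 further nucleotide supply genes 20 were lower and 1 higher with a median of -0.47 (66.7% and 3.33%). Over all tested genes these shares were 37.8% lower and 36.6% higher. With the length trend removed, 22 of the 32 replication factors were lower and 5 higher, with a median of -0.49. Of the 30 nucleotide supply genes 20 were then lower and 4 higher, with a median of -0.51. In that fit 36.6% of all tested genes were lower and 37.2% higher. Among the listed genes, DSCC1, a subunit of an alternative clamp loader, stood at -1.56 ± 0.07, its partner CHTF18 at -1.14 ± 0.11 and the helicase RTEL1 at -1.12 ± 0.07. DUT, which clears dUTP, stood at -1.52 ± 0.08, the nucleoside diphosphate kinase NME1 at -1.26 ± 0.15 and the dCMP deaminase DCTD at -1.14 ± 0.06. Corrected for length, NME1 was at -0.59. With sh-SKA2-1 the 32 replication factors had 13 higher and 7 lower and the 30 nucleotide genes 8 higher and 13 lower. Over all tested genes 31.5% were higher and 31.5% lower in that line. With sh-SKA2-3 the counts were 9 higher and 5 lower, and 6 higher and 8 lower, where 23.6% of all tested genes were higher and 24.0% lower.

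**Figure D4:**
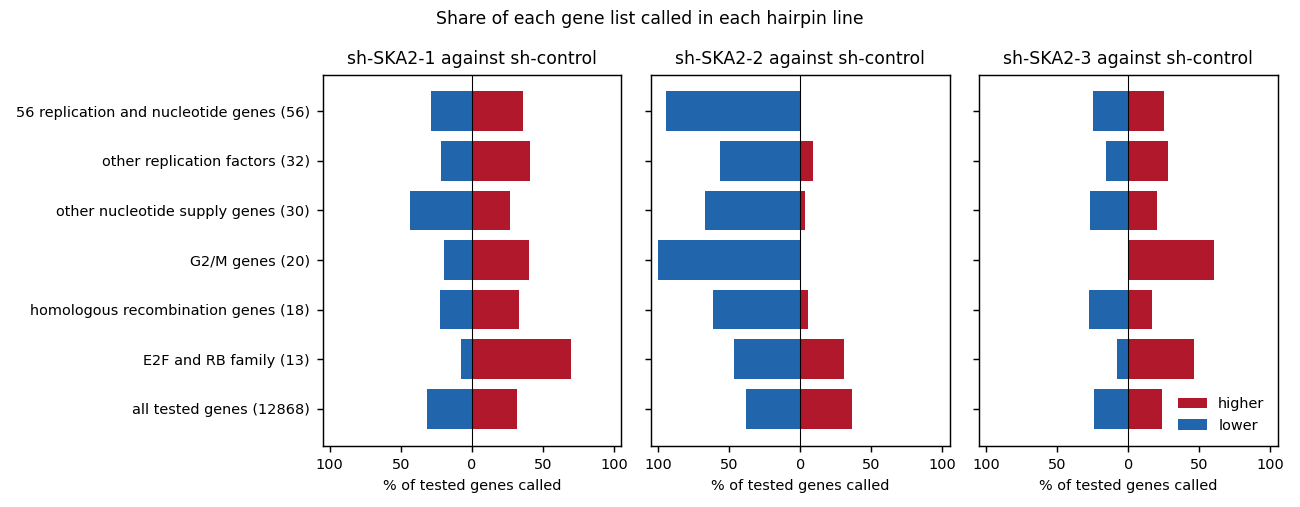
Share of each gene list called higher (right of 0) or lower (left of 0) in each hairpin line against sh-control, in percent of its tested genes, with the number tested in brackets. With sh-SKA2-2 the lower share is 94.6% for the 56 genes and 100% for the G2/M genes, against 37.8% for all tested genes.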

How the data were processed

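Poly(A) RNA of 12 libraries was sequenced on the BGISEQ-500 platform, per the labels' protocols and the design text. The tools named per the submitters' processing notes are HISAT, Bowtie2, DESeq2 and RSEM, and the build is GRCh38.p13. Their roles, versions and filters were not given in the sources used here. In a single deposited table each gene has, per the file headers, a TPM, an FPKM and an expected count in every library. The deposited expected counts need not be whole, and 81.8% to 83.6% of those above 0 were exactly whole. The deposited FPKM are scaled by the authors to length and depth, and the deposited TPM reach an equal total in all libraries. The table's 15 other columns, of group averages, were not used.

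Expected counts were rounded and tested with edgeR (4.0.16, R 4.3.3). The expression filter kept 12868 genes, libraries were scaled by TMM, and the quasi-likelihood model had the line as its factor and used all 12 libraries (8 residual degrees of freedom). Tests were two-sided and adjusted by Benjamini-Hochberg over all tested genes. SE is the absolute log2 fold change divided by the square root of the F statistic, and the script was tested on simulated data. Alternatives used RLE scaling, other count filters, DESeq2 (1.42.0), limma (3.58.1) on log2 TPM, fewer libraries, a replicate block and a length offset, a loess fit (span 0.3) of each library's log2 level on log2 length. Lengths came from the ratio of deposited counts to FPKM. Gene positions are from GENCODE v29 (GRCh38).

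Same-numbered sh-SKA2-3 and sh-control libraries deviated together, with correlations of 0.728, 0.17 and 0.6. All were over 0.1, the rule for trying a block, and no other pair of lines met this rule. Replicate 2 of sh-SKA2-3 correlated more with sh-control replicate 3 (0.391) than with sh-control replicate 2 (0.17). Replicate 1 of either line correlated negatively with replicates 2 and 3 of the other. The numbers may therefore not be true pairs, and any pairing is read from the data, not from the labels. The members and gene lists were chosen with earlier results of these data known. Named genes were SKA2, PCNA, CDC45 and TYMS, the extreme members of each role group with each hairpin, the 6 members with the largest opposite calls, and the 3 called genes of each other list with the largest change with sh-SKA2-2. Other members named fill in complexes and were chosen after their values were seen.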

Additional observations from a re-analysis of the deposited data

Results flagged for a closer look

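Each difference in this section is between lines that were called in opposite directions against sh-control. The difference itself also had an adjusted p under 0.05 in edgeR's quasi-likelihood test. That follows from opposite calls in the same fit, so it adds no separate support. All values are log2 fold changes, and all were lower in sh-SKA2-2. With the length trend removed the opposite calls were lost for GMNN, MCM2, POLA1, RFC3, TIMELESS and WDHD1 between sh-SKA2-2 and sh-SKA2-1, and for ORC5, GMNN, PRIM2 and RPA2 between sh-SKA2-2 and sh-SKA2-3. RPA2 was then called higher with sh-SKA2-2 (0.21). Other members gained opposite calls, so that 18 members had them with sh-SKA2-1 and 14 with sh-SKA2-3. No explanation was tested.

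In sh-SKA2-2 against sh-SKA2-1 the nucleotide supply genes gave -2.20 for RRM2 and -0.92 for RRM1. The chaperone ASF1B stood at -1.998. In the helicase, the values were -1.52 for GINS1, -1.20 for MCM10, -1.04 for GINS4, -0.93 for MCM4 and -0.87 for MCM2. Among polymerase subunits they were -1.45 for POLD3, -1.40 for POLE2 and -1.02 for POLA1. Licensing genes gave -1.32 for CDC6 and -1.10 for GMNN, and the clamp loader gave -1.10 for RFC5 and -0.83 for RFC3. Fork protection genes gave -1.15 for CLSPN, -0.97 for TIMELESS and -0.97 for WDHD1.

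In sh-SKA2-2 against sh-SKA2-3 the difference was -2.07 for RRM2, -2.01 for ASF1B and -1.64 for GINS1. PCNA stood at -1.49, GMNN at -1.34, RFC5 at -1.14 and MCM10 at -1.12. Smaller differences were those of RRM1 (-0.88), DBF4 (-0.79), ORC5 (-0.70), PRIM2 (-0.70), MCM4 (-0.55) and RPA2 (-0.53).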

How the results depend on the processing

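The calls of 47 named genes in 6 comparisons were compared with those of the edgeR fit described above. Settings other than leaving out a library left 2425 values with the same call, 91 without their call, 72 newly called and 44 reversed. Leaving out a library left 3237 the same, 109 without their call, 38 newly called and none reversed. Reversed means a turned sign with a call in at least either of the fits compared. A value called in neither fit counts as the same even where its sign turned. UHRF1 with sh-SKA2-1 against sh-control is such a value, at 0.135 and, with the length offset, -0.024. With sh-SKA2-2 against sh-control the lower count was 37 to 53 under every setting run. The cause of the changes was not tested.

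With limma on log2(TPM + 1) and then with a pseudocount of 0.1, the counts (equal for both) higher and lower were 39 and 6 for sh-SKA2-1 against sh-control, with a median of 0.41 and 0.41. For sh-SKA2-2 against sh-control 3 were higher, with medians of -0.42 and -0.44, and for sh-SKA2-3 against sh-control the medians were 0.20 and 0.20. For sh-SKA2-2 against sh-SKA2-1, 0 were higher, with medians of -0.87 and -0.89. For sh-SKA2-3 against sh-SKA2-1, 0 were higher and 19 lower, with medians of -0.27 and -0.27. There 242 genes were higher and 1332 lower of 12868 tested at log2(TPM + 1). For sh-SKA2-2 against sh-SKA2-3, 0 were higher, with medians of -0.59 and -0.60. With the length offset, the medians were 0.093 for sh-SKA2-1 and -0.91 for sh-SKA2-2 against sh-control, 1 member (RPA2) was higher with sh-SKA2-2, 0 were higher in sh-SKA2-2 against either other hairpin line, and 9 were lower in sh-SKA2-3 against sh-SKA2-1. Without a count filter the medians were -0.004 for sh-SKA2-1 and -0.90 for sh-SKA2-2 against sh-control.

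DESeq2 gave 5 members higher and 7 lower for sh-SKA2-3 against sh-SKA2-1, among 1073 genes higher and 904 lower of 12868 tested. The fit of those 2 lines alone gave 0 and 0, among 144 and 192 of 12528. For sh-SKA2-3 against sh-control the fit of 2 lines gave 7 and 6, among 1590 and 1868 of 12492. The replicate block on those 6 libraries, added after seeing the data, gave 24 and 23, among 4487 and 4436 of 12492. With the length offset it also gave 24 and 23, among 4318 and 4312 of 12489. The block over all 12 libraries changed no count by more than 1.5 times. For the other pairs of lines, the same-numbered libraries did not all correlate over 0.1.

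Leaving out 1 library gave medians of -0.001 to 0.062 for sh-SKA2-1, -0.91 to -0.87 for sh-SKA2-2 and -0.014 to 0.049 for sh-SKA2-3 against sh-control. The range was -0.97 to -0.93 for sh-SKA2-2 against sh-SKA2-1, -0.061 to -0.015 for sh-SKA2-3 against sh-SKA2-1 and -0.91 to -0.85 for sh-SKA2-2 against sh-SKA2-3. For sh-SKA2-3 against sh-SKA2-1 the higher count was 0 to 7 and the lower count 0 to 11. The upper ends came without sh-SKA2-3 replicate 1, where 2536 genes were higher and 2731 lower of 13000 tested. The higher count of sh-SKA2-2 against sh-SKA2-3 was 0 to 1.

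Reversed with sh-SKA2-1 against sh-control, at the 2 TPM pseudocounts and then with the length offset, were PCNA (0.33, 0.33 and 0.36), TYMS (0.17, 0.17 and 0.13), PRIM1 (0.19, 0.20 and 0.20), TK1 (0.052, 0.052 and 0.051), TIPIN (0.28, 0.28 and 0.27) and DUT (0.29, 0.29 and 0.18). At the TPM settings alone these were CHAF1B (0.091 and 0.092), DSCC1 (0.33 and 0.34) and DCTD (0.013 and 0.013), and with the offset alone POLE (-0.46), TIMELESS (-0.10), UBE2C (0.11) and AURKB (0.16). With sh-SKA2-2 against sh-control the TPM settings reversed MCM4 (0.12 and 0.12), POLE (0.074 and 0.076), PRIM2 (0.074 and 0.077), RPA1 (0.31 and 0.31) and CLSPN (0.13 and 0.14), all below the 0.33 by which the median of all genes moved, and the offset reversed ORC4 (-0.50), also against sh-SKA2-3 (-0.14). In sh-SKA2-3 against sh-SKA2-1 the TPM settings reversed CDC45 (-0.22 and -0.22) and ASF1B (-0.22 and -0.22). Values of genes with few counts are limited by depth, and none of the 56 members failed the filter at these totals.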

Other observations

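Genes outside replication that mark other parts of the cell cycle were also read. Of 20 G2/M genes, 20 were lower with sh-SKA2-2, with a median log2 fold change of -1.34, against 37.8% lower and a median of -0.02 over all tested genes. UBE2C, a ubiquitin-conjugating enzyme that works with the anaphase-promoting complex, had 42.0, 37.4 and 33.5 CPM in sh-SKA2-2, against 125, 149 and 164 CPM in sh-control (-1.96 ± 0.13). The phosphatase CDC25C stood at -1.90 ± 0.09 and the kinase AURKB at -1.73 ± 0.14. Corrected for length, UBE2C was at -1.27 and AURKB at -1.13. With sh-SKA2-3, 12 G2/M genes were higher and 0 lower, with a median of 0.35, while the 56 replication and nucleotide genes had 14 higher and 14 lower and 23.6% of all tested genes were higher and 24.0% lower. With sh-SKA2-1, 8 G2/M genes were higher and 4 lower, where 31.5% of all tested genes were higher and 31.5% lower. With the length trend removed, 13 were higher and 1 lower in that line. Of 18 homologous recombination genes, 11 were lower and 1 higher with sh-SKA2-2, with a median of -0.73 (61.1% lower and 5.56% higher, against 37.8% and 36.6% of all tested genes), led by RAD54L (-1.66 ± 0.07), BLM (-1.35 ± 0.09) and EXO1 (-1.17 ± 0.11). With the length trend removed, 16 of the 18 were lower and 0 higher, where 36.6% of all tested genes were lower and 37.2% higher.

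Of the 13 genes of the E2F and RB family, 30.8% were higher and 46.2% lower with sh-SKA2-2, near the 36.6% and 37.8% of all tested genes. With sh-SKA2-1, 69.2% were higher and 7.69% lower, against 31.5% and 31.5% of all tested genes. With sh-SKA2-3 the shares were 46.2% and 7.69%, against 23.6% and 24.0%. With the length trend removed, 8 were higher and 1 lower with sh-SKA2-1 (30.2% and 30.2% of all tested genes). In sh-SKA2-3, 5 were then higher and 2 lower (27.6% and 27.7%). E2F1 had 58.2, 55.2 and 58.9 CPM in sh-SKA2-1, 22.6, 23.5 and 21.0 CPM in sh-SKA2-2 and 41.0, 53.4 and 52.7 CPM in sh-SKA2-3, against 59.0, 68.8 and 75.4 CPM in sh-control. The sh-SKA2-2 libraries were lowest (-1.60 ± 0.12). E2F2 had 41.1, 42.7 and 39.9 CPM in sh-SKA2-1, 10.9, 9.13 and 8.37 CPM in sh-SKA2-2 and 37.2, 34.8 and 37.2 CPM in sh-SKA2-3, against 26.1, 28.8 and 26.5 CPM in sh-control. E2F2 was thus higher in 2 lines (0.60 ± 0.09 and 0.42 ± 0.09) and lower with sh-SKA2-2 (-1.52 ± 0.10), as RRM2 was. With the length trend removed its sh-SKA2-1 value was 0.34. RBL2, which encodes the pocket protein p130, was higher with each hairpin, by 1.05 ± 0.19, 1.26 ± 0.19 and 0.62 ± 0.19. The sh-SKA2-3 call of RBL2 ended without sh-control replicate 2, sh-control replicate 3 or sh-SKA2-3 replicate 1 (adjusted p up to 0.074, edgeR's quasi-likelihood test).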
